A study of Arabidopsis thaliana with 8 samples.

Results

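The ROP module of Arabidopsis thaliana comprised 34 loci chosen by name: 11 ROP GTPases, 9 effectors, 8 activators and 6 inhibitors. Of these, 22 (64.7%) had a row in the count table analysed here, which lists 17710 loci, and the other 12 had none. For comparison, 61.1% of the 27444 nuclear protein-coding loci in the RefSeq gene table had a row. The libraries came from shoots of seedlings aged 7 days, raised upright on MS agar under a cycle of 16 h of light and 8 h of darkness. The study describes 8 libraries, 2 of each of 4 genotypes named CA1-1, cae2-1, cae2-1 CA1-1 and Col (Columbia, the wild-type accession), whose cotyledon cells differ in shape. Only the Col columns could be matched to samples by name, so the levels below are those of Col replicates 1 and 2, and no genotype was compared with another. Whole shoots mix many cell types, so a low level may mean fewer cells of a type or less RNA per cell, which cannot be told apart.

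ROPs are small GTPases of plants, which act as molecular switches at the plasma membrane. Guanine nucleotide exchange factors (GEFs) load them with GTP and turn them on. GTPase-activating proteins (GAPs) speed up GTP hydrolysis, and guanine nucleotide dissociation inhibitors (GDIs) take ROPs off the membrane, so both turn them down. GTP-bound ROPs bind effectors such as the RIC proteins, which carry a CRIB motif, and the scaffold ICR1. In leaf and cotyledon epidermis this module patterns the interlocking lobes of pavement cells through actin and microtubules, and it also guides the tip growth of root hairs and pollen tubes.

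The ends of the ROP coding sequences show the division of the family into types, and those of the 6 listed ROPs are given here from the RefSeq annotation of assembly TAIR10.1. Each line holds the last 15 codons before the stop codon, 5′ to 3′ on the coding strand, with cysteine codons in capitals.

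ROP2 (chromosome 1): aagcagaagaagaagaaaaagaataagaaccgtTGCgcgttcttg

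ROP5 (chromosome 4): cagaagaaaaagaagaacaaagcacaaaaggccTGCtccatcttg

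ROP7 (chromosome 5): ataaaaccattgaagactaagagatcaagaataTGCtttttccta

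ROP8 (chromosome 2): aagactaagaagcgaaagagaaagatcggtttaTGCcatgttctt

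ROP9 (chromosome 4): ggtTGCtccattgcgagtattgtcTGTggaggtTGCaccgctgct

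ROP11 (chromosome 5): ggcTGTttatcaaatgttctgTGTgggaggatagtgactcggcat

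ROP2, ROP5, ROP7 and ROP8 each had a single cysteine codon in this window, the 4th from the stop, and ended in a leucine codon. That is the form of a geranylgeranylation signal, by which type I ROPs are attached to the membrane. ROP9 had 3 cysteine codons in the window, the last of them also the 4th from the stop. ROP11 had 2, neither of them at that position. Neither gene ended in a leucine codon. These belong to the type II ROPs, which are held at the membrane by S-acylated cysteines.

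Similarity between the ROP genes sets how far their reads can be told apart. Across the 11 ROP genes, aligned coding sequences were most alike for ROP3 and ROP5 (90.4% identical bases), ROP2 and ROP4 (90.1%) and ROP10 and ROP11 (87.1%). The least alike pair was ROP8 and ROP10, at 68.2%. Each of the 3 closest pairs joins a listed with an unlisted gene, as do many other pairs, since 6 of the 11 genes are listed. Even so, none of the 1326 stretches of 50 bases in the longest ROP2 transcript occurred in a transcript of another locus, and the same held for ROP7, ROP8, ROP9 and ROP11. At 36 bases, 0.597% of the stretches of ROP2 were shared, 0.158% of those of ROP11, 0.444% of those of ROP5 on the same strand, and none of those of ROP7, ROP8 or ROP9. The sources used here do not give the length of the reads or the handling of reads that match several genes.

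**Figure D1:**
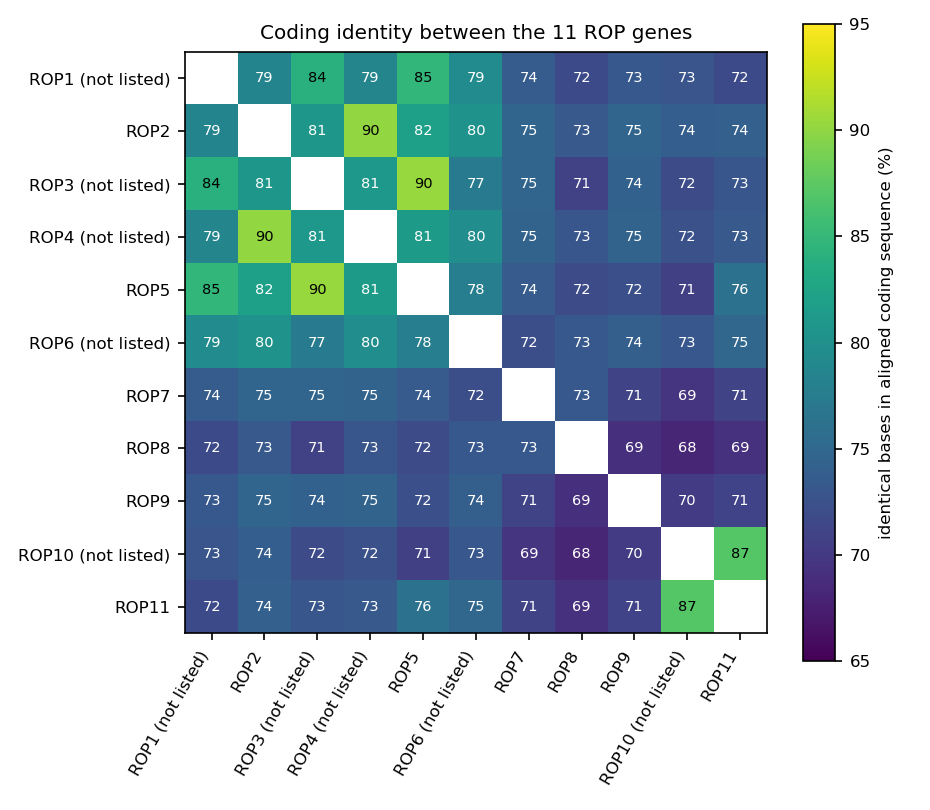
Percentage of identical bases between the aligned RefSeq coding sequences of the 11 ROP genes, with genes that have no row in the count table marked as not listed. The brightest cells are ROP3 with ROP5 (90.4%), ROP2 with ROP4 (90.1%) and ROP10 with ROP11 (87.1%).

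The depth of the data was low: replicate 1 held 2571129 counts over all listed models, and replicate 2 held 2408685. Levels are given as CPM, a model's count relative to the library size scaled with TMM factors. Neither library held a count of 1, so a listed 0 can stand for 1 count, and it allows up to 1.90 CPM in replicate 1 or 1.91 in replicate 2 (one-sided 95% Poisson limit, counting error only). All 5 leaf photosynthesis markers were listed, with a summed level of 60719 CPM in replicate 1, against 30664 CPM in replicate 2. Of 3 epidermal markers, PDF1 and LTP1 were listed and summed to 2337 and 2246 CPM, and ATML1 had no row. PDF1 was higher in replicate 2, at 333 and 665 CPM, and LTP1 in replicate 1, at 2004 and 1580 CPM. The guard cell gene FAMA had 62.6 and 67.2 CPM, and the guard cell gene KAT1 had 222 and 47.9 CPM. The trichome gene GL2 had 301 and 297 CPM. Of 4 root markers, the root hair genes EXPA7 and EXPA18 were listed at 0 in both libraries. The endodermal gene CASP1 had 21.3 CPM in replicate 1 against 4.43 in replicate 2, and the endodermal gene CASP2 had 8.43 and 6.84 CPM. Together they brought the sum of the root markers to 29.7 and 11.3 CPM. The pollen marker AGP6 had 2 counts and 0, and AGP11 had no row.

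The levels of the ROP module ran from 0 to a mean of 137 CPM. Of the 22 listed members, 12 (54.5%) had a mean of at least 5 CPM and 2 (9.09%) of at least 100 CPM. Over all listed loci, 60.2% reached 5 CPM and 11.2% reached 100 CPM. The median of the members' mean levels was 7.84 CPM, against 10.9 CPM over all listed loci. Listed at 0 in both libraries were 2 members (9.09%), against 18.9% of all listed loci. The shares at 5 and 100 CPM were close to those of the whole table. The share at 0 and the median were lower, but they rest on 22 members and were not tested. None of these values sets the module apart. The levels depend on the library size: with the larger number given in each column name, the median of the members was 4.27 CPM and 0 members reached 100 CPM.

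**Figure D2:**
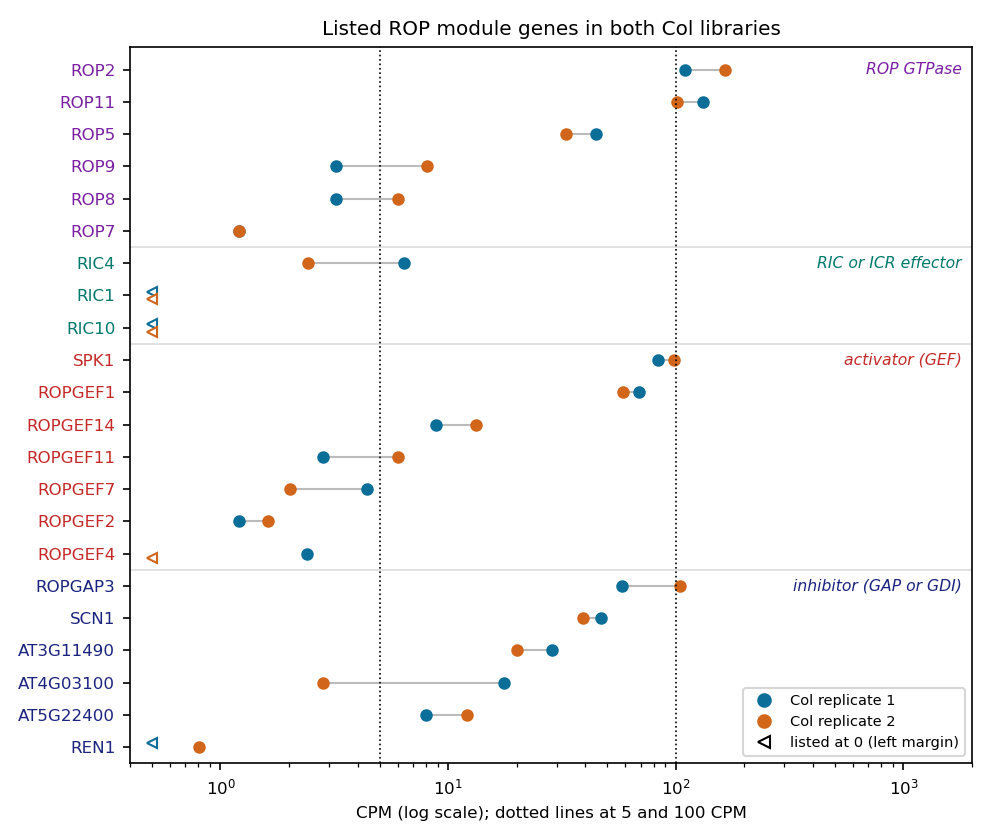
CPM of the 22 listed members in Col replicate 1 and Col replicate 2 on a log axis, ordered within each class by mean level, with a grey line joining both libraries and open triangles at the left margin for a listed 0. ROP2 and ROP11 are the members whose mean reaches 100 CPM, and RIC1 and RIC10 are at 0 in both libraries.

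Among the GTPases, ROP2 and ROP11 were well detected. ROP2 (AT1G20090), which promotes lobe outgrowth in pavement cells, had 274 counts in replicate 1 against 409 in replicate 2, which were 110.0 and 165 CPM, with a mean of 137 ± 38.6 CPM (SD, n = 2). ROP11 (AT5G62880), known for negative control of abscisic acid responses and for patterning wall pits in xylem vessels, had 328 and 252 counts, or 132 and 101 CPM, with a mean of 117 ± 21.4 CPM. The libraries ranked the pair in opposite order, so which of these genes was higher is not settled by these data. ROP5 (AT4G35950), a type I ROP known from pollen tubes, followed with 111 and 82 counts, or 44.5 and 33.0 CPM. On the opposite strand the annotated gene AT4G35940 overlaps ROP5 by 272 bases, and 20.1% of the 50-base stretches of ROP5 lie there. Without a stated strand setting, reads from both genes cannot be told apart in that stretch.

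The other listed GTPases had few counts. ROP9 (AT4G28950) had 8 counts in replicate 1 against 20 in replicate 2, which were 3.21 and 8.05 CPM. ROP8 (AT2G44690) had 8 and 15 counts, or 3.21 and 6.04 CPM. ROP7 (AT5G45970), known from developing xylem, had 3 counts in each library, or 1.20 and 1.21 CPM. Together the 6 listed GTPases came to 294 CPM in replicate 1, against 314 in replicate 2, and as a fold the sums differed less between the libraries than any single GTPase except ROP7. ROP1 (AT3G51300), ROP3 (AT2G17800), ROP4 (AT1G75840), ROP6 (AT4G35020) and ROP10 (AT3G48040) had no row, and their levels were not analysed here. These sums therefore cover only part of the family. In the annotation, the ROP1 gene lies almost wholly within a neighbour on the same strand, AT3G51290, which overlaps 98.6% of its span and had 4 counts and 0.

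Of the 7 listed activators, SPK1 and ROPGEF1 had clear levels and the other 5 had few counts. SPK1 (AT4G16340), the DOCK-family exchange factor that trichome and pavement cell shape depend on, had 209 counts in replicate 1 against 245 in replicate 2, which were 83.9 and 98.6 CPM. ROPGEF1 (AT4G38430), one of the plant-specific exchange factors with a PRONE domain, had 172 and 146 counts, or 69.0 and 58.7 CPM. Both genes differed little between the libraries. ROPGEF14 (AT1G31650) had 22 and 33 counts, or 8.83 and 13.3 CPM. ROPGEF7 (AT5G02010), which is needed to maintain the root stem cell niche, had 11 and 5 counts. ROPGEF11 (AT1G52240), a phytochrome-interacting activator, was listed with 2 models, isoform 1 at 0 in both libraries and isoform 2 at 7 and 15 counts. Its gene overlaps the photosystem I gene PSAH2 on the opposite strand by 174 bases, and PSAH2 had 1404 and 1265 counts. Whether PSAH2 reads add to the ROPGEF11 count was not tested. ROPGEF2 (AT1G01700) had 3 and 4 counts, and ROPGEF4 (AT2G45890), an activator of ROP11 in xylem vessels, had 6 and 0. ROPGEF3 (AT4G00460), which marks the site of root hair initiation, had no row.

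All 6 inhibitors were listed, and 5 of them reached 5 CPM. ROPGAP3 (AT2G46710), a GAP that bounds ROP domains in xylem vessels, had 145 counts in replicate 1 against 260 in replicate 2, which were 58.2 and 105 CPM. SCN1 (AT3G07880), the GDI that keeps root hair cells to a single growth site, had 117 and 97 counts, or 47.0 and 39.0 CPM. AT3G11490, annotated as a Rac GTPase activating protein, had 71 and 50 counts, or 28.5 and 20.1 CPM. For SCN1 and AT3G11490 the higher value was that of replicate 1, and for ROPGAP3 that of replicate 2. AT4G03100 and AT5G22400 are further GAPs of the module. AT4G03100 had 44 and 7 counts, or 17.7 and 2.82 CPM, which was the largest ratio between the libraries among the tested members. AT5G22400 had 20 and 30 counts, or 8.03 and 12.1 CPM. REN1 (AT4G24580), a GAP known for keeping ROP1 activity to the pollen tube tip, had 0 and 2 counts.

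Summed over listed genes, and without regard to length, effectors were the class with the fewest counts, 16 in replicate 1 and 6 in replicate 2. Of 9 effector genes, 3 were listed and none of these reached a mean of 5 CPM. RIC4 (AT5G16490), which promotes fine actin in pavement cell lobes, had 16 counts in replicate 1 against 6 in replicate 2, which were 6.42 and 2.41 CPM. RIC1 (AT2G33460), which orders microtubules in the necks between lobes, was listed at 0 in both libraries, as was RIC10 (AT4G04900). The RIC1 gene overlaps PRPL28, a plastid ribosomal protein gene with 315 and 727 counts, by 513 bases on the opposite strand, and 33.5% of the 50-base stretches of RIC1 lie in PRPL28 transcripts. How reads in such overlaps were assigned is not given in the sources used here. Of the other listed members, ROPGEF7 and AT3G11490 also overlap an opposite-strand gene, by 33 and 79 bases. RIC2 (AT1G27380), RIC3 (AT1G04450), RIC5 (AT3G23380), RIC6 (AT2G20430), RIC7 (AT4G28556) and the scaffold gene ICR1 (AT1G17140) had no row.

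Levels of different genes are comparable only per length, so CPM were divided by the length of the longest RefSeq transcript of the locus. On this scale ROP2 stood at 80.0 CPM per kb in replicate 1 and 119.7 in replicate 2, and ROP11 at 101 and 77.8. The lowest of these values lay above the highest value of every other listed member. Among the 17614 listed loci with a transcript length, the mean of ROP2 lay at the 92.6th percentile and that of ROP11 at the 91.7th. ROP5, ROPGAP3, SCN1 and ROPGEF1 formed the next group, with means of 33.4 ± 7.04, 30.6 ± 12.3, 30.4 ± 3.97 and 30.2 ± 3.44 CPM per kb (SD, n = 2). Their values overlapped, so these 4 genes cannot be ranked. This rests on the length used: per kb of coding sequence, ROP5, ROPGAP3 and SCN1 had means of 65.3, 59.5 and 59.5 CPM per kb, and ROPGEF1 had 38.8. SPK1, whose transcript of 6453 bases is the longest of the module, stood in the 7th place at 14.1 ± 1.61 CPM per kb, and AT3G11490 followed at 11.8 ± 2.87. The effector gene RIC4, whose transcript of 705 bases is the shortest, came 9th at 6.27 ± 4.02 CPM per kb. Its values, 9.11 in replicate 1 and 3.42 in replicate 2, lay on both sides of the median of all listed loci, 6.01 CPM per kb. Of the 21 pairs of neighbours in the order, 17 had overlapping values.

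**Figure D3:**
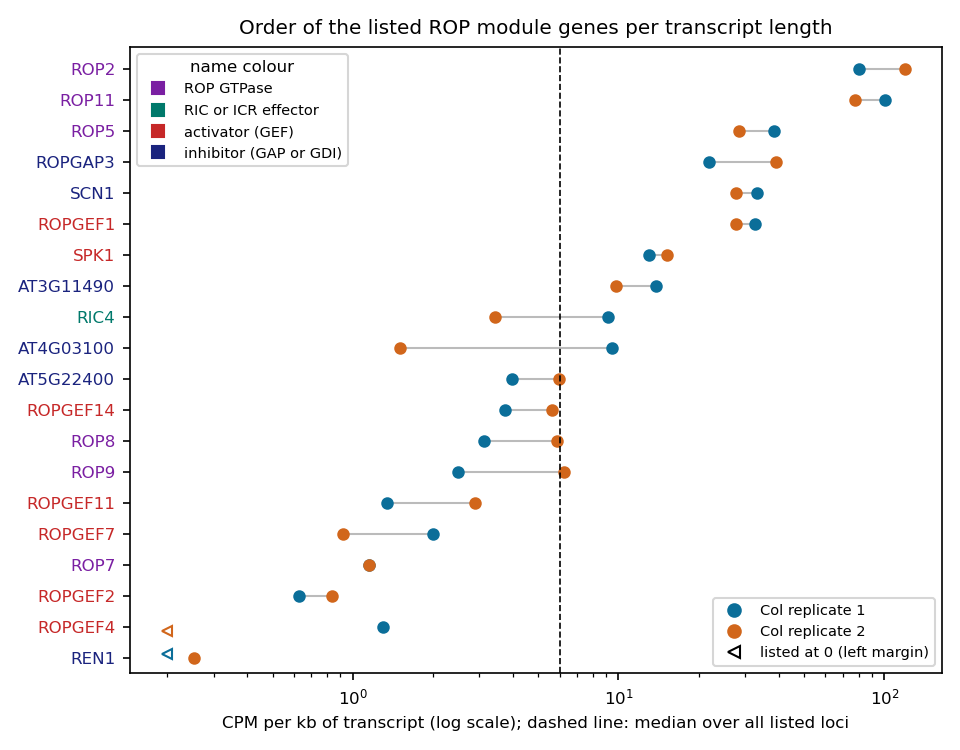
CPM per kb of transcript of the 20 listed members with a count above 0 in a library, on a log axis from the highest mean (top) to the lowest, with Col replicate 1 and Col replicate 2 as points and the name coloured by class. ROP2 and ROP11 stand apart from the other members, and the dashed line is the median of all listed loci, 6.01 CPM per kb.

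Within the listed GTPases, ROP2, ROP5 and ROP11 took 97.0% of the summed CPM per kb in replicate 1 and 94.5% in replicate 2. ROP2 alone took 35.4% and 50.04%, and ROP11 44.6% and 32.5%. The 3 others took under 3% each in either library. Genes without a row are not part of these shares.

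How well each level was reproduced was examined with an exact binomial test, which asked whether the counts of a model split between the libraries as their scaled sizes do. This test compares 2 libraries of the same genotype with counting noise, and no conditions. Of the 12 members that reached a mean of 5 CPM, 5 (41.7%) differed beyond counting noise at an adjusted p under 0.05, against 55.3% of the 10701 models tested. Of these, 2 were higher in replicate 1 and 3 in replicate 2, against 27.6% and 27.7% of all tested models. The median absolute log2 ratio of the 12 members was 0.53, and that of all tested models was 0.58. The count of members is not above that share, and with a filter at 20 CPM it was 3 of 8, against 66.7% of all models tested there.

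AT4G03100 was higher in replicate 1 by 2.45 on the log2 scale (replicate 1 over replicate 2, 0.5 CPM added to both; adjusted p = 5.76e-07, exact binomial test with Benjamini-Hochberg adjustment). ROP11 was also higher in replicate 1, with a log2 ratio of 0.38 (adjusted p = 0.00437, same exact test). ROPGAP3 was higher in replicate 2, with a log2 ratio of -0.84 (adjusted p = 4.86e-08, same exact test), as was ROP2, with a log2 ratio of -0.58 (adjusted p = 1.01e-06, same exact test). For ROP9 the log2 ratio was -1.20 at an adjusted p of 0.044 by the exact test, and with RLE size factors in place of TMM the adjusted p was 0.0636. So the GTPase and the GAP with the highest mean CPM per kb were both higher in replicate 2, and ROP11 was higher in replicate 1. The summed leaf photosynthesis markers, at 60719 and 30664 CPM, also differed between the libraries, and their part in these differences was not tested.

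The other 7 tested members did not pass, and their intervals show what the counts allow. SPK1 had a log2 ratio of -0.23 (95% exact interval -0.51 to 0.04, without added CPM, counting error only), ROPGEF1 of 0.23 (-0.09 to 0.56) and SCN1 of 0.26 (-0.13 to 0.67). These intervals leave out a 2-fold difference. Those of AT3G11490 (-0.04 to 1.05), ROPGEF14 (-1.44 to 0.23) and AT5G22400 (-1.48 to 0.28) do not. ROP5 had a log2 ratio of 0.43 (0.01 to 0.86), with an adjusted p of 0.0748 by the exact test. SPK1 passed only where no scaling factors were used (adjusted p = 0.0356, same exact test). The 10 listed members under 5 CPM were not tested: the highest of them was ROP8, at a mean of 4.62 CPM, and the lowest tested was ROP9, at 5.63 CPM.

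**Figure D4:**
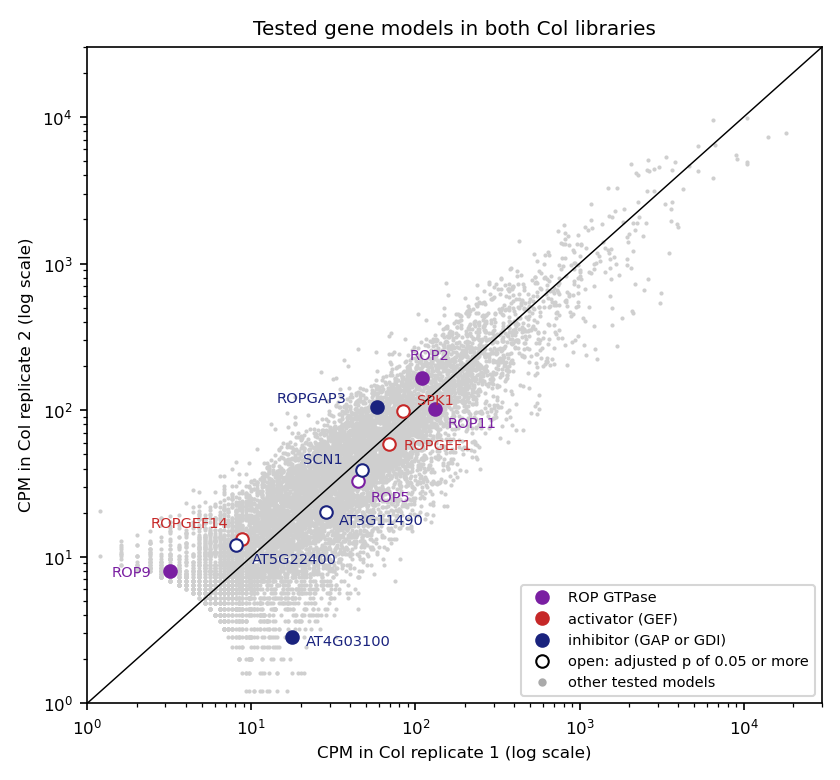
CPM in Col replicate 1 (x axis) against Col replicate 2 (y axis), both on log scales, for tested gene models with a count in both libraries (grey) and for the 12 tested members (coloured by class; open circles did not pass the exact test), with the line of equality. AT4G03100 lies far below the line, at 17.7 and 2.82 CPM, and ROPGAP3 and ROP2 lie above it.

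Genes that act beside the module were taken from a list of 49 further loci. Of these, 30 were listed, against 61.1% of nuclear protein-coding loci. Of the 30, 20 reached 5 CPM and 3 reached 100 CPM, against 60.2% and 11.2% of all listed loci. The libraries differed beyond counting noise for 12 of the 20 tested genes, against 55.3% of all tested models. Of these, 7 were higher in replicate 1 and 5 in replicate 2, against 27.6% and 27.7% of all tested models, so the counts of the list are near those of the whole table. Receptor kinases upstream of ROPs had the highest class median per length, 41.4 CPM per kb. FER, the FERONIA receptor kinase that recruits ROPGEFs, had 486 CPM in replicate 1 against 418 in replicate 2, and TMK1, a transmembrane kinase of auxin signalling, had 279 and 91.3 CPM. All 3 tested genes of the NADPH oxidase and exocyst class were higher in replicate 2, as were 27.7% of all tested models, and 3 genes are too few to set the class apart. RBOHD, which makes apoplastic superoxide, had 32.9 and 109 CPM, and the exocyst subunit gene SEC3A had 70.6 and 148 CPM. On the microtubule side, the microtubule-associated protein gene CLASP had 72.2 and 91.7 CPM, and the katanin gene KTN1, whose product severs microtubules and is a target of RIC1, had 41.3 and 47.1 CPM.

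The actin nucleation machinery that acts downstream of ROPs and SPK1 was listed in part. Of 9 subunit genes of the ARP2/3 complex 5 were listed, all of them at a mean of 5 CPM or above (60.2% of all listed loci). Of these, 3 differed between the libraries, which is near the 55.3% of all tested models. The highest were ARPC5, with 44.9 CPM in replicate 1 against 31.4 in replicate 2, and ARPC1B, with 18.9 and 29.0 CPM. Of 8 genes of the SCAR/WAVE complex, which activates ARP2/3, 3 were listed. The highest were SCAR2 with 37.3 and 26.6 CPM and SCAR3 with 20.9 and 22.9 CPM.

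Further regulators and effectors had lower class medians per length, from 0.688 to 2.84 CPM per kb. The value of 0.688 is that of 1 listed locus. The highest genes of these classes, RIP2 and ROPGEF13, had means of 13.2 and 10.8 CPM per kb. Of 7 further ROPGEF genes 5 were listed, led by ROPGEF13 with 26.1 CPM in replicate 1 against 14.5 in replicate 2 and ROPGEF6 with 8.43 and 5.23 CPM, while ROPGEF10 and ROPGEF12 were listed at 0 in both. Of 7 further effector genes 4 were listed, led by RIP2, annotated as a ROP interactive partner, with 62.2 and 13.7 CPM, and by AT1G61795, with 3.61 and 7.24 CPM. RIP2 passed the exact test at a log2 ratio of 2.14, and AT1G61795 did not pass it (adjusted p = 0.136). Of 4 further GAP and GDI loci only AT1G12070 was listed, with 2 counts in each library. The ROP-binding kinase genes RBK2 and RBK1 had 2.01 and 2.82 CPM, and 2.41 and 1.21 CPM.

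**Figure D5:**
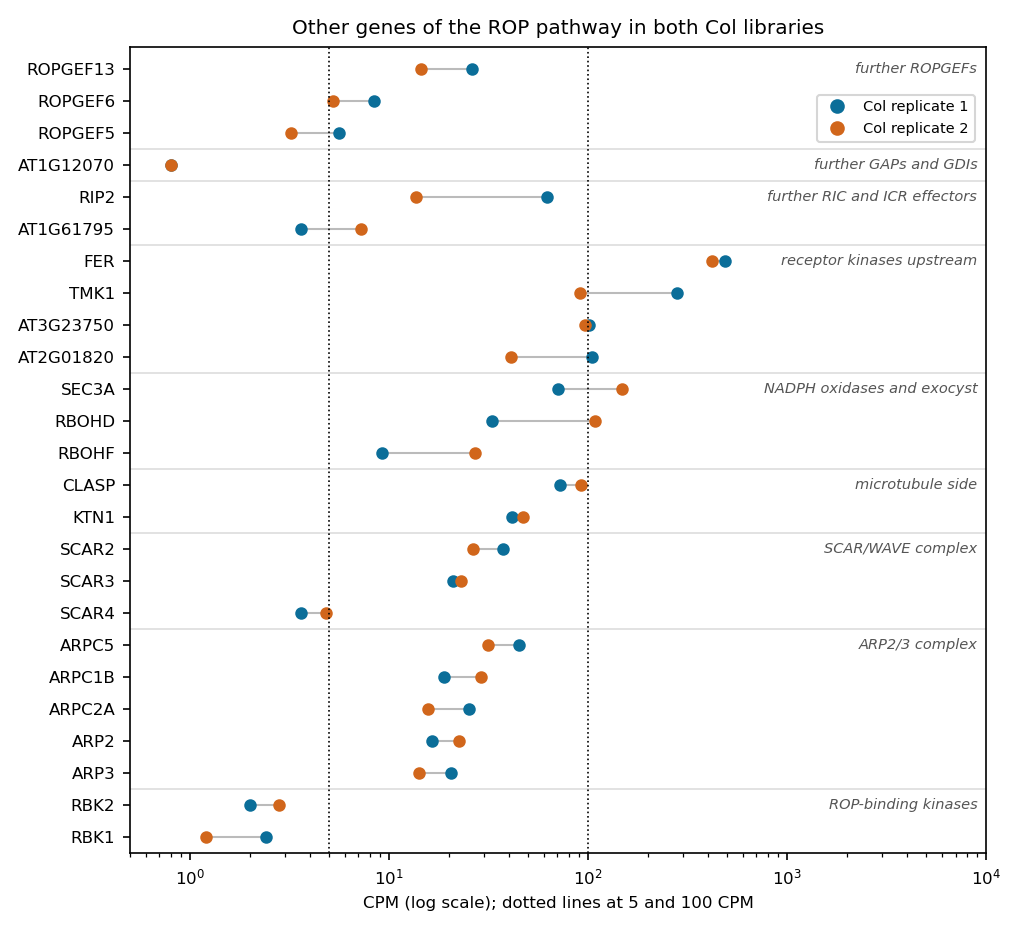
CPM of 25 listed genes of the ROP pathway outside the module in Col replicate 1 and Col replicate 2 on a log axis, by class, leaving out 5 genes at 0 in both libraries. FER is highest, at 486 and 418 CPM, and RBOHD, RBOHF and SEC3A are each higher in replicate 2.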

How the data were processed

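The authors deposited raw read counts per gene model, per the file headers. The submitters' processing notes name TAIR10 as the build. Not given in the sources used here: the aligner, the counting tool and its strand setting. Of the columns of values, 2 match Col sample titles and 6 match no sample and were not used. The most abundant model stood for a locus. Libraries were scaled with edgeR 4.0.16 (TMM) in R 4.3.3. With a single genotype edgeR's quasi-likelihood test has no contrast to fit. The exact binomial test (two-sided, scipy 1.17.1) covered all 10701 models at a mean of 5 CPM or more. Benjamini-Hochberg adjustment ran over all of them, with a threshold of 0.05. The test was also run on simulated data with counting noise and planted changes. That setting holds no further spread between replicates, so it cannot show how the test behaves with such spread. The p-values set the difference between these libraries against counting noise only, and no spread between replicates was estimated. The labels do not say whether the replicates came from separate plates or days. The labels describe no molecular identifiers, and reads without them are not independent, so intervals cover counting error only.

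Names, lengths, overlaps and coding sequences came from RefSeq (TAIR10.1), matched by locus tag for all 34 members and 49 pathway loci. The submitters name TAIR10, so lengths and overlaps may differ from those of the models that were counted. Protein features were planned but no protein table was used, so coding sequences were compared instead (biopython 1.88). Members and lists were chosen with earlier results of these data known. All listed members are named, as are the 2 highest listed pathway genes of each class; genes overlapping a member, and RBOHF, ROPGEF10 and ROPGEF12, were named after their values were seen. Alternatives covered scaling, library size, the filter, the model, the length used and each library alone.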

Additional observations from a re-analysis of the deposited data

How the results depend on the processing

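No paired analysis was possible because replicate numbers could pair libraries only across genotypes, and a single genotype was analysed. With the number given in each column name as library size, which is larger than the column sum, all CPM were lower: the median of the listed members was 4.27 CPM, the summed level of the listed ROP GTPases was 166 CPM, and 0 members reached 100 CPM, while 11 reached 5 CPM. From replicate 1 or replicate 2 alone, that median was between 7.04 and 7.22 CPM, 12 or 13 members reached 5 CPM, 2 or 3 reached 100 CPM, and the ROP GTPases summed to between 294 and 314 CPM. The number of members beyond counting noise was 3 with a filter at 20 CPM, where only 8 members were tested, and 4 to 6 of 11 to 20 tested under the 5 other alternatives. The share of all tested models called was between 41.6% with no filter and 66.7% at 20 CPM. Of 67 replicate ratios of single members recomputed, 63 kept their direction and call and none turned. The exceptions were ROP9 and SPK1. ROP9 missed the threshold with RLE factors (log2 ratio -1.20, adjusted p = 0.0636), with a filter at 1 CPM (adjusted p = 0.0517) and with no filter (adjusted p = 0.0565, all by the exact test). ROP9 was not tested with a filter at 20 CPM, or with the number in the column name, where its mean was 3.07 CPM. Its call was therefore kept only without scaling factors (adjusted p = 0.0402, exact test). SPK1 passed the threshold without scaling factors (log2 ratio -0.32). The same 6 genes were the highest per length with coding length, without scaling factors and from either library alone, and their order changed only from either library alone. Low counts limit RIC1 and RIC10, at 0 in both libraries, and also ROP7, ROPGEF2, ROPGEF4 and REN1.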
